A study of Homo sapiens with 6 samples.

Results

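The HOX genes are the genes of the HOXA, HOXB, HOXC and HOXD clusters, and they were followed here in PANC-1 cells with and without a knockdown of RRM2. PANC-1 is a human cell line established from a carcinoma of the pancreatic duct. Members were taken by symbol: HOXA, HOXB, HOXC or HOXD followed by a number, protein-coding, with antisense and other noncoding genes left out. That gave 39 genes, all present among the 42902 genes of the count table. Both groups are PANC-1 cells whose genotype the labels give as WT. One carried a control short hairpin RNA (shNC, 3 libraries) and the other a short hairpin RNA against RRM2 (shRRM2, 3 libraries), and no other agent or allele is named. The series title ties RRM2, the small subunit of ribonucleotide reductase, to YBX1, to TGF-beta signalling and to liver metastasis of pancreatic cancer. The number of hairpins, the vector, and whether cells were cloned or the libraries came from separate cultures were not given in the sources used here. The p-values therefore cover library-to-library spread, possibly technical in part or whole.

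HOX proteins are transcription factors that bind DNA through a homeodomain. In the embryo they mark position along the body axis: genes at the low-numbered end of a cluster (paralog groups 1 to 3) are used toward the head, and genes at the high-numbered end (groups 9 to 13) toward the tail and in the limbs. The clusters arose as copies of one another, so genes of the same number in different clusters are paralogs. Neighbouring genes lie in the same orientation and share regulatory DNA, and whole stretches of a cluster are kept silent by Polycomb or opened by Trithorax complexes. Many carcinomas keep or regain a HOX pattern.

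The HOX genes that rose by the largest folds in shRRM2 were HOXB3, HOXB5, HOXB6 and HOXB7, which lie next to one another on chromosome 17, apart from HOXB4, which was nearly uncounted. The homeoboxes of HOXB6 and HOXB7, the 180 bases that encode the homeodomain, are shown because both genes rose and because reads from such similar stretches are where a counting method could mix members. Each was read from the GENCODE v29 transcripts (GRCh38), 5′ to 3′. The capitals mark codons 48 to 52, which encode the tryptophan, phenylalanine, glutamine, asparagine and arginine of the recognition helix.
HOXB6: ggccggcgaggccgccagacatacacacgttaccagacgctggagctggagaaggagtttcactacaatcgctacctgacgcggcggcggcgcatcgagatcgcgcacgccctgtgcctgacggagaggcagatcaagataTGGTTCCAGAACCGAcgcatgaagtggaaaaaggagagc
HOXB7: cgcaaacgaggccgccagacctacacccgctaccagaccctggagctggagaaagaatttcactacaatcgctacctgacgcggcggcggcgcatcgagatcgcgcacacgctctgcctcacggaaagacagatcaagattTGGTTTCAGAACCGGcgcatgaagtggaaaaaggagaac
The 2 had 88.9% of bases identical, with a longest identical run of 51 bases. The homeobox is a small share of each transcript, and how reads that map to several places were counted is not given in the sources used here.

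Depth was even, with total counts between 16606947 and 23300433 per library, and levels are in CPM on library totals scaled by TMM. RRM2 checked the labels: it was at 204, 192 and 203 CPM in shNC against 40.5, 40.7 and 39.5 CPM in shRRM2, 20.1% of the control level (log2 fold change −2.31, SE 0.0443, edgeR adjusted p = 3.72e-29). Of the markers of ductal epithelium, KRT7, KRT8 and KRT18 were abundant, with a summed level of the 5 markers of 2516 to 2611 CPM in shNC and 3349 to 3410 CPM in shRRM2. KRT19 had 22 counts and EPCAM 53 counts over all 6 libraries, so these defining epithelial markers were near absent. Of the 5, KRT8 and KRT18 were called higher and KRT7 lower. EPCAM was also called higher, but it passed the filter through the shRRM2 libraries alone (14 counts in shNC and 39 in shRRM2), so it had to differ to be tested. Fibroblast markers summed to 19.0 to 21.0 CPM in shNC and 33.0 to 34.2 CPM in shRRM2, nearly all of it COL1A1, with DCN at 8 and LUM at 13 counts in total. Endothelial markers summed to 1.15 to 1.37 against 2.87 to 3.28 CPM, mostly CDH5, with KDR at 0. Of these 10 markers, COL1A1 and CDH5 passed the filter and both were called higher. Immune markers reached at most 0.85 CPM, acinar markers at most 0.113 CPM, and endocrine markers were at 0. The part of these markers in the results below was not tested. In bulk RNA, fewer cells that express a gene and less RNA per cell cannot be told apart.

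The HOX genes were used unevenly in PANC-1. Levels of different genes were compared as CPM per kb of exon. Summed over its members, the HOXC cluster stood at 83.8 ± 1.95 CPM per kb in shNC (SD, n = 3), the HOXA cluster at 36.1 ± 0.393, the HOXB cluster at 15.0 ± 0.245 and the HOXD cluster at 0.302 ± 0.0259. HOXC thus held 62.0% of the summed HOX level, HOXA 26.7%, HOXB 11.1% and HOXD 0.224%. The HOXC share was 61.9% with the length of the longest transcript in place of all exons, an alternative added after the data were seen.

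**Figure D1:**
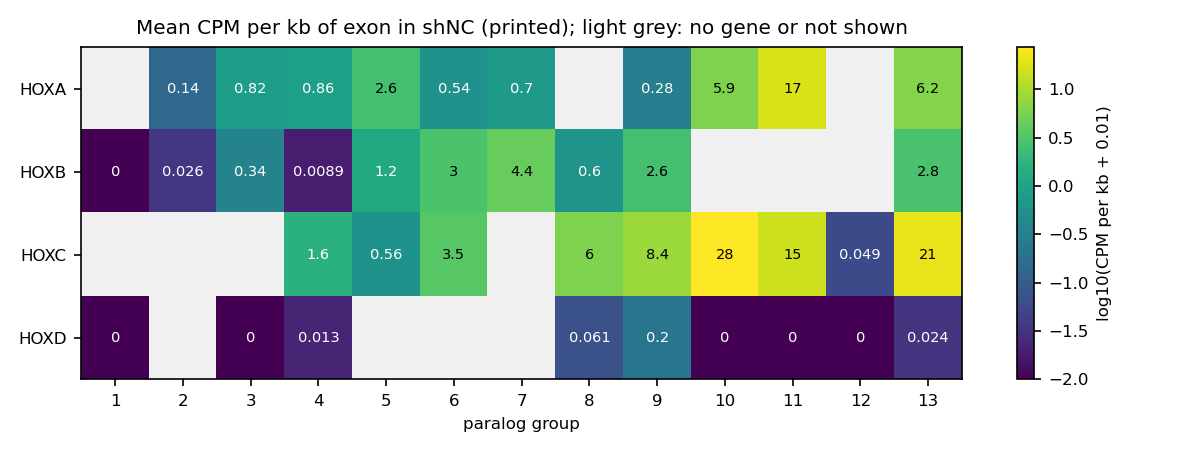
Mean level of HOX genes in shNC (n = 3), with the 4 clusters as rows and paralog groups 1 to 13 as columns; the printed number is CPM per kb of exon and the colour its log10 after adding 0.01. The brightest squares are groups 10, 11 and 13 of HOXC and group 11 of HOXA, and the HOXD row is dark throughout.

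The highest levels in shNC belonged to the posterior genes of HOXC and HOXA. HOXC10, a gene of hindlimb and lumbar patterning, led with 27.5 ± 0.793 CPM per kb. HOXC13, known for the control of hair keratins, followed at 21.0 ± 1.10, and HOXA11, needed for the forearm and the uterus, at 17.1 ± 0.313. HOXC11 was at 15.2 ± 0.774 and HOXC9 at 8.41 ± 1.23. HOXA13 (6.23 ± 0.200), HOXC8 (6.03 ± 0.303) and HOXA10 (5.86 ± 0.194) came next. HOXC8 differed from each of the other two by less than its own SD. With the longest transcript as the length, HOXA10 moved from rank 8 to rank 6, while ranks 1 to 5 were the same. HOXB7 was the highest of its cluster at 4.37 ± 0.279 CPM per kb. These are differences between genes within 1 cell line, with exon lengths from GENCODE v29 that may not be the models used in counting.

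Of the 39 members, 14 were too low to test, and 5 of these had no count in any library: HOXB1, HOXD1, HOXD3, HOXD10 and HOXD12. A count of 0 leaves room for at most 3 counts, or 0.181 CPM of the total of the shallowest library, as counting error alone. The other low members were HOXA2 (23 counts over the 6 libraries), HOXB2 (13), HOXB4 (5), HOXC12 (26), HOXD4 (1), HOXD8 (15), HOXD9 (45), HOXD11 (18) and HOXD13 (10). All 9 HOXD members together had 89 counts. In GENCODE v29, 80.5% of the exonic bases of HOXD4, 74.1% of those of HOXD3 and 58.1% of those of HOXD1 overlap another gene. The shares were 21.4% for HOXD11 and 16.8% for HOXD10, and HOXD8, HOXD9, HOXD12 and HOXD13 overlap none. How reads shared by several genes were counted is not given in the sources used here. The low counts of the overlapping genes are therefore uncertain beyond counting error. Of the 25 tested members, 23 passed the filter on either group alone, and HOXA6 and HOXA9 passed on libraries of both groups together, so none was tested through a high group alone.

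**Figure D2:**
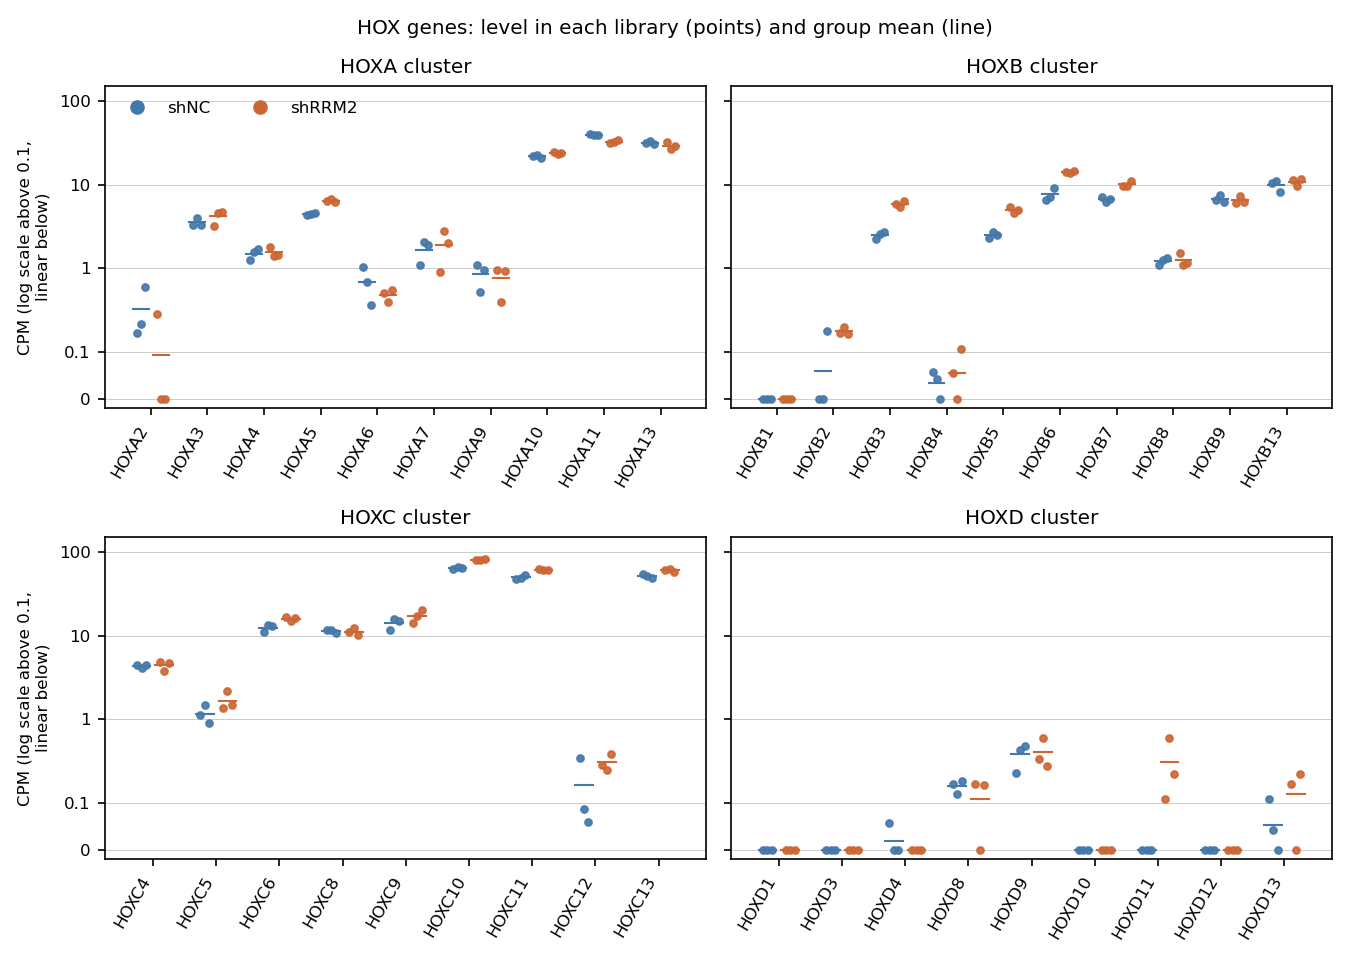
CPM of HOX genes in the 6 libraries (points) with the group mean (short line), shNC in blue and shRRM2 in orange, one panel per cluster; the axis is logarithmic above 0.1 CPM and linear below. The orange points of HOXB3, HOXB5, HOXB6 and HOXB7 all lie above the blue ones, those of HOXA11 lie below, and most of the HOXD panel sits at 0.

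Between shRRM2 and shNC, 11 of the 25 tested members were called, 10 higher and 1 lower, at an adjusted p under 0.05. Over all 15866 tested genes 52.1% were called, 26.0% higher and 26.1% lower, so the share of members called (44%) was not above the background, while the share called higher (40%) was above it and the share called lower (4%) below. No test was made of these shares. The median log2 fold change of the 25 members was 0.23, against −0.01 over all tested genes. The CPM of the groups did not overlap for 12 of the 25, against 57.8% of all tested genes. By cluster, 4 of 7 tested HOXB genes and 4 of 8 tested HOXC genes rose, and in HOXA 2 of 10 rose and 1 fell.

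**Figure D3:**
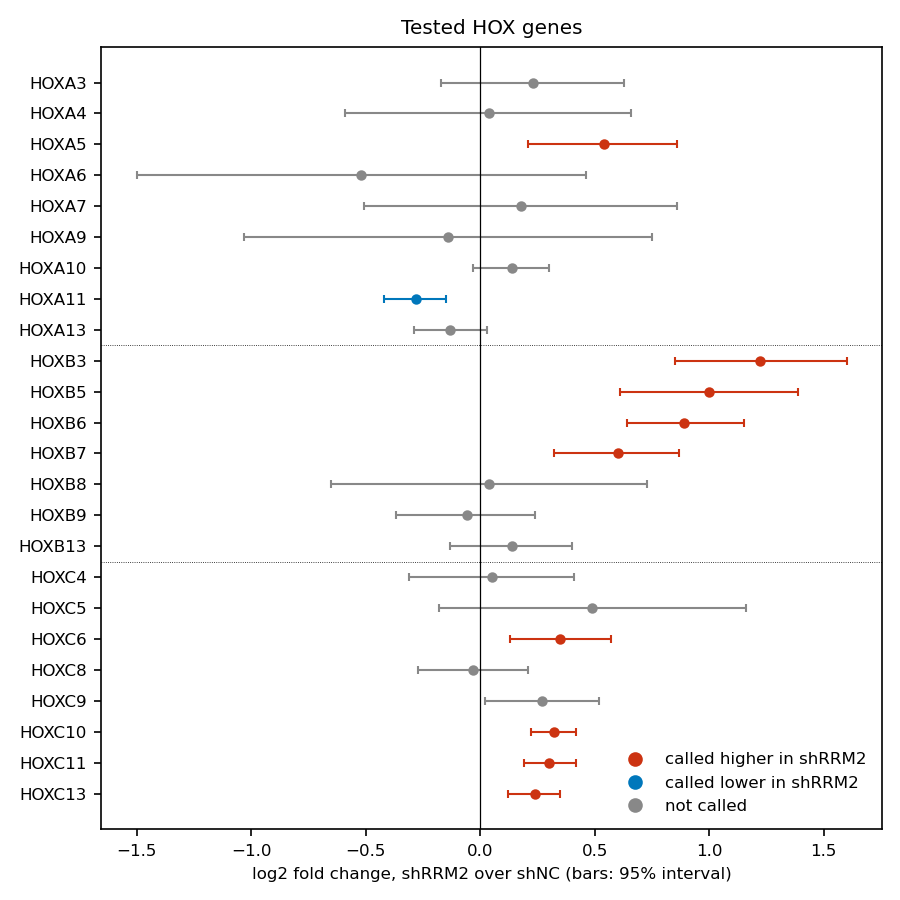
Log2 fold change of tested HOX genes (points) with 95% intervals (bars), shRRM2 over shNC, in cluster order; red is called higher, blue called lower, grey not called. HOXB3 is the farthest right at 1.22, the intervals of HOXC10, HOXC11 and HOXC13 are narrow and near 0.3, and HOXA6 and HOXA9, the least counted, have the widest.

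In the HOXB cluster the tested genes of groups 3 to 7 rose and those of groups 8 to 13 were not called. HOXB3 (Gene ID 3213, chromosome 17, 48548870 to 48590241, minus strand, GRCh38), a gene of the hindbrain and pharyngeal arches, was counted 39, 59 and 45 times in shNC replicates 1 to 3 and 104, 108 and 114 times in shRRM2. These are 2.23, 2.56 and 2.73 CPM against 5.88, 5.44 and 6.30 CPM. All 3 knockdown libraries lay above all control libraries, with a log2 difference of 1.22 (SE 0.186, adjusted p = 1.20e-06), the largest among called members. HOXB5 (48591257 to 48593779), a gene of gut and lung mesenchyme, had 40, 62 and 41 counts against 95, 92 and 91. Its levels were 2.29, 2.69 and 2.49 CPM in shNC and 5.37, 4.63 and 5.03 CPM in shRRM2, again without overlap (1.00, SE 0.193, adjusted p = 4.93e-05).

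HOXB6 (48595751 to 48604986) was the most counted of the 4, with 116, 165 and 152 counts in the control and 249, 275 and 265 in the knockdown. It went from 6.63, 7.16 and 9.23 CPM to 14.1, 13.8 and 14.6 CPM (0.89, SE 0.127, adjusted p = 3.45e-07), and the highest control library remained below the lowest knockdown library. HOXB7 (48607232 to 48611017), often reported as raised in carcinomas, had 123, 143 and 112 counts against 168, 192 and 200. At 7.03, 6.20 and 6.80 CPM in shNC and 9.50, 9.67 and 11 CPM in shRRM2, it rose by 0.60 (SE 0.134, adjusted p = 0.000318). Summed, the 4 genes were at 19.3 ± 1.67 CPM in shNC against 35.1 ± 1.73 in shRRM2, a ratio of 1.82.

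The next genes of the cluster were not called. HOXB8 had 19, 29 and 22 counts in the control and 27, 22 and 21 in the knockdown (log2 fold change 0.04, 95% interval −0.65 to 0.73). HOXB9, a gene of the rib cage, had 116, 173 and 101 against 106, 146 and 111 counts (−0.06, interval −0.37 to 0.24). HOXB13, the prostate and tail gene that stands far from the others, had 182, 251 and 134 against 203, 190 and 210 counts (0.14, interval −0.13 to 0.40). These 3 summed to 17.8 ± 2.04 CPM in shNC against 18.6 ± 0.539 in shRRM2, a ratio of 1.05. The intervals of HOXB3, HOXB5, HOXB6 and HOXB7 all lay above the interval of HOXB9. However, the wide interval of HOXB8 met those of HOXB5, HOXB6 and HOXB7, and the interval of HOXB13 met that of HOXB7 (0.32 to 0.87). The difference between the sets was not itself tested, and the sets were formed after the values were seen. The cluster as a whole went from 15.0 ± 0.245 to 21.6 ± 0.843 CPM per kb.

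Reads of overlapping genes bear on this stretch. HOXB-AS3, a noncoding gene on the other strand, covers parts of HOXB3, HOXB5 and HOXB6 in GENCODE v29. It was called higher too, at 2.06, 2.08 and 2.19 CPM in shNC against 3.39, 3.57 and 5.52 CPM in shRRM2 (0.98, SE 0.227, adjusted p = 0.000474). In GENCODE v29, of the exonic bases of HOXB6, 32.9% overlap another gene, of those of HOXB3 13.2%, and of those of HOXB5 3.58%. HOXB7 overlaps none. The library kit was directional per the labels, but whether counting used the strand is not given in the sources used here. Part of the overlap is on the same strand, where strand could not separate reads. This part is 16.6% of the exonic bases of HOXB6, with HOXB3, and 7.94% of those of HOXB3, with HOXB4 or HOXB6. The overlapping part of HOXB6 and HOXB3 therefore cannot be told apart from their neighbours, and the rises of these genes may not be separate. LINC03057, beyond HOXB9, was not called, at 19.7 ± 2.16 and 19.6 ± 1.38 CPM.

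**Figure D4:**
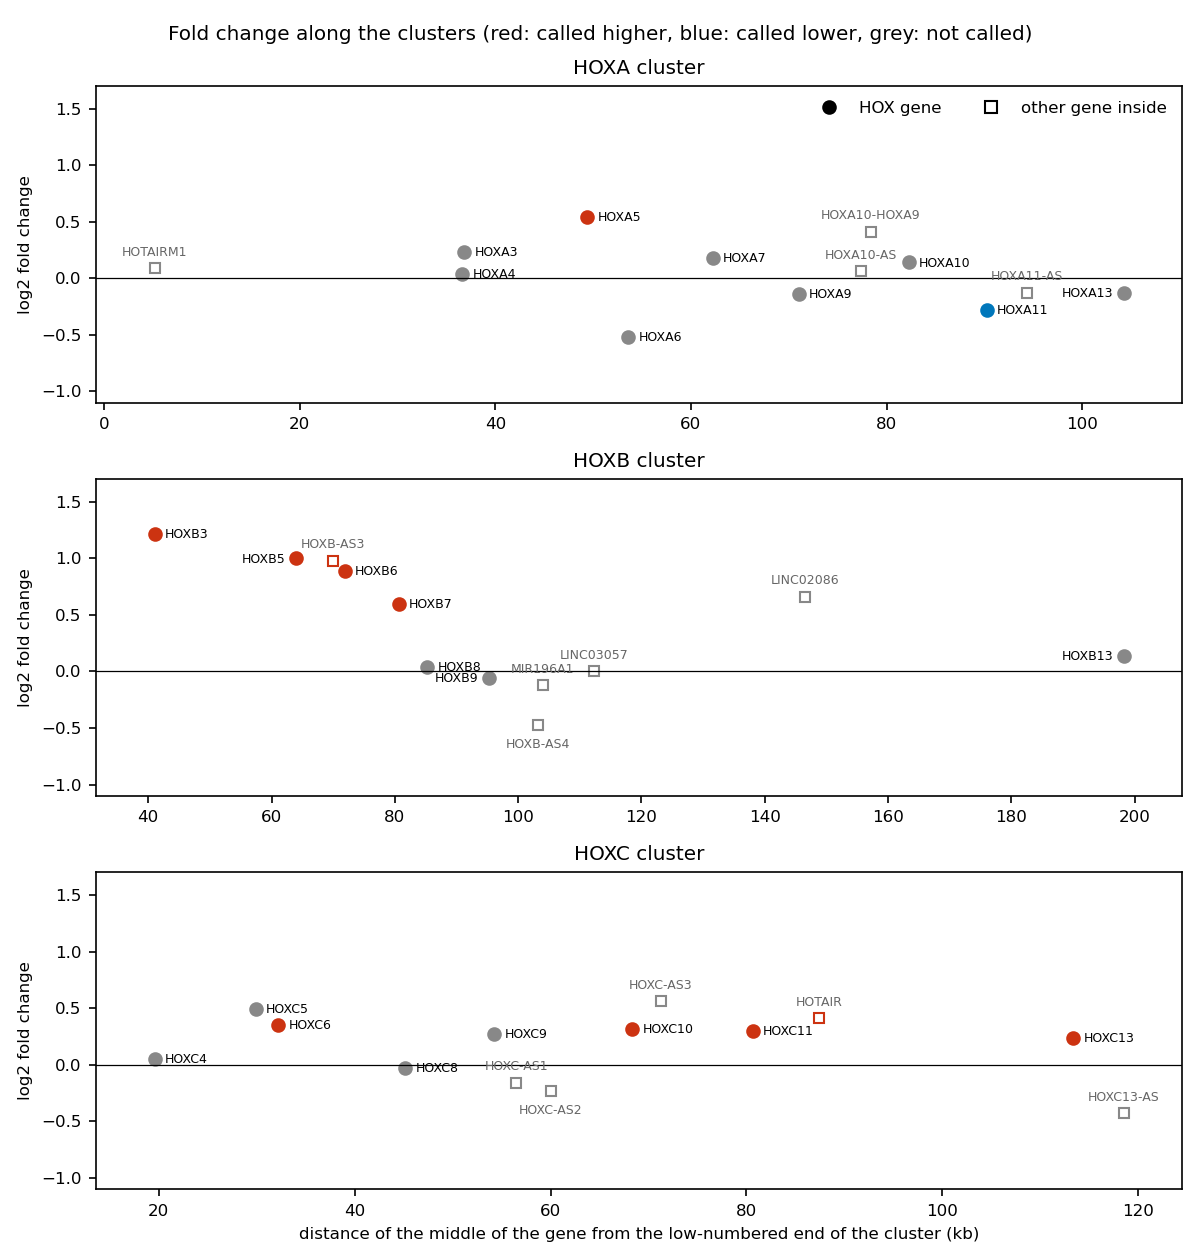
Log2 fold change (vertical axis, shRRM2 over shNC) of tested genes against distance in kb from the low-numbered end of the HOXA, HOXB and HOXC clusters; circles are HOX genes and open squares other genes inside, red called higher, blue called lower and grey not called. In HOXB the red points descend from HOXB3 at 1.22 to HOXB7 at 0.60 and HOXB8 and HOXB9 sit near 0; in HOXA the lowest called point is HOXA11 at −0.28.

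The microRNAs of miR-196 lie within 3 of the clusters, and one of them is a textbook inhibitor of HOXB8. Their mature sequences are given since their host loci were counted here and they share a seed (bases 2 to 8, in capitals), from RefSeq on GRCh38.p14.
miR-196a-5p: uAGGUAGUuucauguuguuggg
miR-196b-5p: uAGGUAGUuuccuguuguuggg
The locus of miR-196a beside HOXB9, MIR196A1, was at 0.659 ± 0.218 CPM in shNC against 0.606 ± 0.157 CPM in shRRM2 and was not called. MIR196A2 in the HOXC cluster had 5 counts in total and MIR196B in the HOXA cluster had 0. Libraries of polyadenylated RNA hold fragments of longer transcripts, so these counts say nothing about the mature microRNAs.

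In the HOXA cluster HOXA5 rose and a posterior gene, HOXA11, fell. HOXA5, a gene of lung and diaphragm development, had 76, 102 and 75 against 112, 134 and 113 counts. It went from 4.34, 4.42 and 4.56 CPM to 6.34, 6.75 and 6.24 CPM (0.54, SE 0.159, adjusted p = 0.00501).

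HOXA11 (Gene ID 3207, chromosome 7, 27181157 to 27185232, minus strand) was the single HOX gene called lower. It had 703, 904 and 638 counts in the control and 549, 634 and 616 in the knockdown, or 40.2, 39.2 and 38.8 CPM against 31.1, 31.9 and 34.0 CPM. The groups did not overlap, and shRRM2 was lower, at a log2 fold change of −0.28 (interval −0.42 to −0.15, SE 0.0669, adjusted p = 0.000556). HOXA11-AS, transcribed away from HOXA11 on the other strand, was at 21.3, 21.0 and 16.8 CPM in shNC against 18.1, 18.5 and 17.6 CPM in shRRM2 and was not called (−0.13, adjusted p = 0.273). The annotations differ on this pair. In GENCODE v29 some transcripts of HOXA11-AS begin inside HOXA11, and 31.1% of the exonic bases of HOXA11 overlap it, whereas in RefSeq the genes do not overlap. Which models were used in counting is not given in the sources used here, so reads of the overlapping part may not be told apart. The RefSeq promoter window of HOXA11 (GRCh38.p14, chr7:27185183-27185482, minus strand) is shown because the RefSeq models of this pair both start there, with the 175 bases between those 2 start sites in capitals.
HOXA11: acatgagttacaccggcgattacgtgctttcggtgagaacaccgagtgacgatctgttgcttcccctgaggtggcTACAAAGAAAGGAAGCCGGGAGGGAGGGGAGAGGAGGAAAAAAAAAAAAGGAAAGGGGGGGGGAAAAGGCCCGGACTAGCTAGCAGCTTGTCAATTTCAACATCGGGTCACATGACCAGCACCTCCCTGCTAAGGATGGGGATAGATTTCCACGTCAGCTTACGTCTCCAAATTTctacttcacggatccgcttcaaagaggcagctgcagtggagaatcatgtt
HOXA11 begins at 27185232 and HOXA11-AS at 27185408. RefSeq promoter windows matched 20 of the 39 members, in 27 windows. The word TGATTNAT, the paired site of HOX and PBX proteins, was found on either strand in 2 of these 27 (HOXA2 and HOXD11) and in 2.82% of all 35116 windows of the table.

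The flanking posterior genes of HOXA were not called. HOXA10, a gene of the uterus, had 382, 516 and 345 counts against 439, 460 and 432, and its CPM did not overlap, at 21.0 to 22.4 in shNC and 23.2 to 24.8 in shRRM2 (0.14, SE 0.0818, adjusted p = 0.159). HOXA13, the gene of digits and hindgut, had 555, 754 and 505 against 572, 523 and 516 counts (−0.13, adjusted p = 0.163). Without shRRM2 replicate 1 it was called lower (−0.21, adjusted p = 0.0382). HOXA10, HOXA11 and HOXA13 together went from 92.8 ± 2.11 to 85.3 ± 3.54 CPM.

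The other tested HOXA genes were thinly counted and none was called. HOXA3 had 58, 92 and 55 counts against 57, 92 and 85 (0.23, interval −0.17 to 0.63). HOXA4 had 22, 36 and 28 against 32, 28 and 26, and HOXA7 had 19, 48 and 31 against 16, 56 and 36. HOXA6 had 18, 16 and 6 against 9, 8 and 10 (−0.52, interval −1.50 to 0.46), and HOXA9 had 19, 12 and 16 against 17, 8 and 17. In all 5 the 2 groups overlapped. In GENCODE v29, 62.5% of the exonic bases of HOXA7 and 47.3% of those of HOXA4 overlap another gene. The shares were 40.1% for HOXA6, 27% for HOXA9 and 17.9% for HOXA3. Reads of those parts may not be told apart, so the low counts of these genes are uncertain. HOTAIRM1, a noncoding gene at the low-numbered end of the cluster that is known to respond to retinoic acid, was at 20.7 ± 0.952 CPM in shNC against 22.0 ± 1.83 CPM in shRRM2 and was not called (0.09, adjusted p = 0.429).

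In the HOXC cluster the most abundant genes rose by small and even amounts. HOXC10 (Gene ID 3226, chromosome 12, 53985146 to 53990279, plus strand) had 1095, 1524 and 1044 counts in the control and 1396, 1574 and 1493 in the knockdown. Its levels were 62.6, 66.1 and 63.4 CPM against 79.0, 79.2 and 82.5 CPM (0.32, SE 0.0493, adjusted p = 1.22e-06). HOXC11 had 831, 1130 and 863 against 1096, 1202 and 1107 counts, and went from 47.5, 49.0 and 52.4 CPM to 62.0, 60.5 and 61.1 CPM (0.30, SE 0.0555, adjusted p = 2.25e-05). In both genes every knockdown library stood above every control library. HOXC13 had 939, 1172 and 796 against 1074, 1234 and 1034 counts, at 53.7, 50.8 and 48.3 CPM in shNC against 60.8, 62.1 and 57.1 CPM in shRRM2 (0.24, SE 0.0569, adjusted p = 0.000724). Summed, the 3 genes went from 165 ± 1.19 to 201 ± 0.623 CPM. Of their paralogs in HOXA, HOXA11 was called lower and HOXA10 and HOXA13 were not called. The interval of HOXC11 (0.19 to 0.42) lay apart from that of HOXA11 (−0.42 to −0.15), though no test compared the genes with each other.

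HOXC6 had 192, 305 and 216 counts against 293, 294 and 294, or 11, 13.2 and 13.1 CPM against 16.6, 14.8 and 16.2 CPM (0.35, SE 0.108, adjusted p = 0.00725). Its call was lost without shNC replicate 1, the lowest library (0.26, adjusted p = 0.063). HOXC9, known for thoracic motor neurons, was near the threshold with 206, 361 and 246 against 249, 336 and 365 counts. Its CPM overlapped, at 11.8, 15.7 and 14.9 against 14.1, 16.9 and 20.2 (0.27, adjusted p = 0.0696). It was called higher under 5 of 14 alternatives, with adjusted p between 0.0089 and 0.377 over all of them. HOXC8, a gene of the thoracic skeleton, had 203, 273 and 177 against 193, 245 and 184 counts (−0.03, interval −0.27 to 0.21). HOXC4 had 77, 94 and 73 against 85, 76 and 86 counts (0.05), and HOXC5 had 20, 34 and 15 against 24, 43 and 27 (0.49, interval −0.18 to 1.16). HOXC4, HOXC5 and HOXC6 share exons of a long common transcript, so their counts are uncertain.

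HOTAIR, a long noncoding RNA mostly between HOXC11 and HOXC12 that has been described to bind Polycomb and act on the HOXD cluster, rose as HOXC10 and HOXC11 did. It stood at 19.4, 20.1 and 20.5 CPM in shNC against 26.5, 27.1 and 26.2 CPM in shRRM2, with no overlap (0.41, SE 0.0805, adjusted p = 5.75e-05). In RefSeq the span of HOTAIR (53962312 to 53974954) reaches into that of HOXC11 (53973126 to 53977643). In GENCODE v29 0% of the exonic bases of HOXC11 overlap another gene. Which models were used in counting is not given in the sources used here, so the 2 rises may not be separate. The HOXD genes stayed at or near 0 in both groups. Among them HOXD11 had 0 counts in each shNC library and 2, 12 and 4 in shRRM2. Against the 3 counts that a total of 0 over the group allows, the shRRM2 counts taken as exact were 6.31-fold higher. This is no lower limit of the difference, since the counting error and spread of the shRRM2 counts were left out. Replicate 2 gave 12 of these 18 counts. HOXD9 had 22 counts in shNC and 23 in shRRM2, and HOXD13 had 3 and 7.

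Of the 34 counted genes that lie inside the clusters and are not members, 14 were tested and 2 were called, HOXB-AS3 and HOTAIR. The share called was 14.3% of those tested, against 52.1% of all tested genes. HOXA10-AS, HOXA10-HOXA9 (a readthrough of those 2 genes), HOXB-AS4, LINC02086, HOXC-AS1, HOXC-AS2, HOXC-AS3 and HOXC13-AS had means of 0.85 to 3.92 CPM and were not called. HOXC-AS3, over HOXC10, was called higher without shRRM2 replicate 1 (0.74, adjusted p = 0.0347). Outside the clusters, the nearest 2 protein-coding genes on each side made 16 genes, of which 12 were tested, 6 called higher and 3 lower. Their share called was 75%, above that 52.1%, and neither share was tested. SNX10 (0.45) and SKAP2 (0.35) beside HOXA, CALCOCO2 (0.32) beside HOXB, and CALCOCO1 (0.55), CBX5 (0.38) and SMUG1 (0.15) beside HOXC were higher. SMUG1 lost its call in 6 alternatives. ATP5MC2 beside HOXC (−0.23), and MTX2 (−0.58) and HNRNPA3 (−0.48) beside HOXD, were lower. HIBADH, SNX11 and LNPK were not called. CBX5 encodes the heterochromatin protein HP1 alpha and went from 347 ± 3.89 to 452 ± 7.03 CPM.

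HOX proteins bind DNA together with the TALE homeodomain proteins PBX, MEIS and PKNOX. Of 9 such genes 8 were tested, 1 rose and 3 fell, with a median log2 fold change of −0.10. Of those tested, 50% were called and 37.5% were lower, against 52.1% and 26.1% of all tested genes. PBX3 fell from 21.2 ± 1.74 to 15.7 ± 1.43 CPM (−0.43, adjusted p = 0.000365), and PKNOX1 was lower at −0.27 (adjusted p = 0.0341). MEIS3 rose from 23.7 ± 0.742 to 35.4 ± 0.709 CPM (0.58, adjusted p = 3.39e-08). MEIS1 was at 5.11 ± 0.401 and 5.05 ± 1.12 CPM and was not called.

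Polycomb complexes keep HOX genes silent, and MLL complexes keep them active. Of 11 PRC2 genes, 1 rose and 4 fell (45.5% called and 36.4% lower, median −0.01). Over all tested genes 52.1% were called and 26.1% were lower. EZH2, the methyltransferase for H3K27, went from 85.7, 76.4 and 87.3 CPM to 66.1, 63.3 and 70.5 CPM (−0.32, SE 0.0544, adjusted p = 9.07e-06). AEBP2 (−0.33), EED (−0.26) and SUZ12 (−0.16, adjusted p = 0.00607) were also lower, and PHF1 was higher (0.24). Of 18 PRC1 genes, 4 rose and 4 fell (44.4% called and 22.2% lower, median −0.03). The largest called changes were those of PCGF1 (−0.40), CBX8 (−0.32), PHC1 (−0.29) and PCGF6 (0.29). BMI1 was at 2.03 ± 0.564 and 2.83 ± 0.587 CPM and was not called (adjusted p = 0.112). Of 13 genes of the MLL complexes and the H3K27 demethylases, 3 rose and 5 fell (61.5% called and 38.5% lower, median −0.04). PSIP1, which tethers MLL to chromatin, was lower at −0.50, and WDR5 at −0.22, while ASH2L and the demethylase KDM6B were both higher at 0.39. KMT2A, which encodes MLL1, and MEN1, its partner menin, were not called (adjusted p = 0.453 and 0.203).

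**Figure D5:**
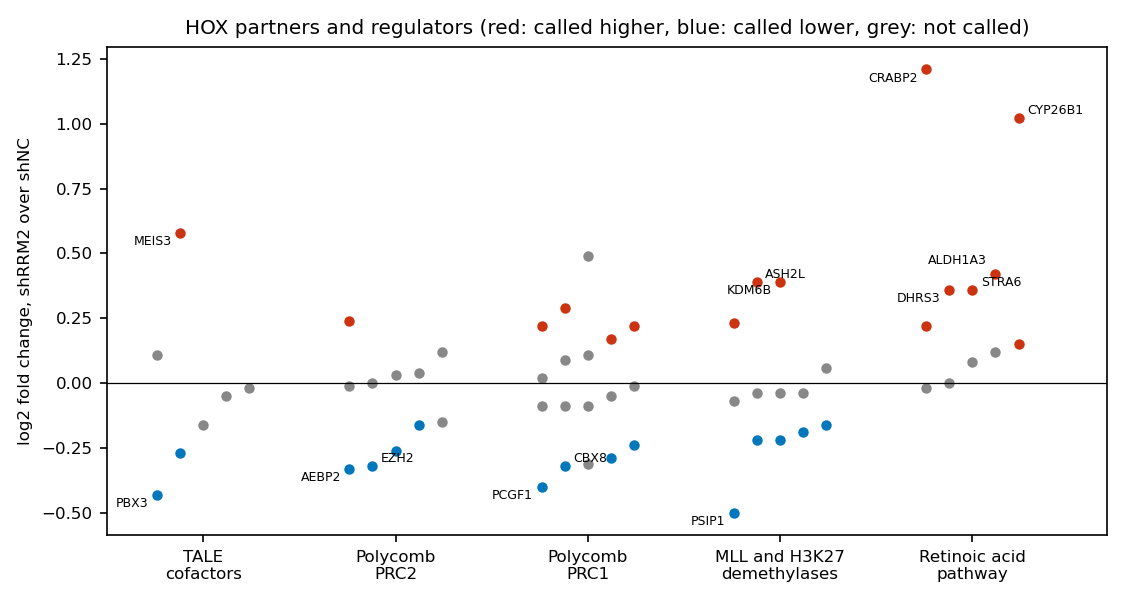
Log2 fold change (vertical axis, shRRM2 over shNC) of tested genes in 5 lists of HOX partners and regulators; red is called higher, blue called lower, grey not called, and called genes beyond 0.3 in size are named. In the retinoic acid list 7 points are red and none blue, with CRABP2 at 1.21 and CYP26B1 at 1.02; in the other 4 lists both colours occur.

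Retinoic acid switches on anterior HOX genes through RAR and RXR receptors. Of 18 genes of its pathway 11 were tested, and 7 rose and 0 fell (63.6% higher, against 26.0% of all tested genes), with a median of 0.22. CRABP2, which carries retinoic acid to the nucleus, was at 4.86, 3.90 and 3.28 CPM in shNC against 10.6, 8.81 and 8.51 CPM in shRRM2 (1.21, SE 0.160, adjusted p = 1.01e-07). CYP26B1, which breaks retinoic acid down, went from 11.6, 12.3 and 12.8 CPM to 25.0, 24.7 and 24.9 CPM (1.02, SE 0.0921, adjusted p = 2.55e-11). In both the groups were well apart. ALDH1A3, which makes retinoic acid, rose by 0.42, DHRS3, which reduces retinal, by 0.36, STRA6, the membrane receptor for retinol-binding protein, by 0.36, and the receptor RARA by 0.22 (adjusted p = 0.00231). RARB, a receptor that retinoic acid is known to induce, had 30 counts in shNC and 25 in shRRM2 and was too low to test. Of the 4 tested genes that were not called, RARG and RDH10 were at 0.00 and −0.02.

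Of the ParaHox genes and the EVX genes beside the clusters, 8 in all, none could be tested, and together they had 6 counts. PDX1, the ParaHox gene of the pancreas, and CDX2, that of the intestine, had no count in any library. Over the 6 lists of partners and regulators, 61 genes were tested, 16 rose and 16 fell, or 52.5% called against 52.1% over all genes. The lists were chosen with results of these data known, and no test compared a list with other genes.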

How the data were processed

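RNA of 6 PANC-1 libraries was made into directional libraries after poly-T selection, per the labels. The authors deposited 1 table of whole-number read counts per Gene ID, made with fastp 0.23.4 and featureCounts on hg38, per the submitters' processing notes; not given in the sources used here: aligner, annotation release, strand and multi-mapping settings. Its columns have the prefix si where labels have sh, and were matched by gene name and number.

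Here, filterByExpr, TMM scaling and edgeR 4.0.16 (quasi-likelihood, robust, group alone, two-sided, R 4.3.3) were applied to the whole table, with Benjamini-Hochberg adjustment over 15866 tested genes and a threshold of 0.05; every adjusted p is from this fit unless an alternative is named. SE is the size of the log2 fold change over the square root of F. With 3 against 3 libraries an exact permutation test cannot go below 0.1, so none was used. Symbols and positions came from RefSeq (GRCh38.p14), which named 40120 of 42902 IDs, and exon lengths and overlaps from GENCODE v29 (GRCh38).

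By the rule, named are the members, noncoding genes inside the clusters at 1 CPM or more, tested flanking genes, and from each list up to 4 called genes of the largest change plus known ones; some of these are not reported here, and counts include them. Members and lists were chosen with earlier results of these data known. The fit was tested on simulated data. Alternatives were RLE factors, library size alone, other filters, DESeq2 1.42.0, limma-voom (limma 3.58.1), a replicate block, each library left out, and an adjusted p of 0.01. The 95% intervals come from the edgeR fit and hold the spread between libraries; limits for 0 cover counting error only.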

Additional observations from a re-analysis of the deposited data

How the results depend on the processing

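Over 14 alternatives, 348 fold changes of single HOX genes were computed: 329 had the direction and call given above, 1 lost its call (HOXC6, above), 6 gained one and 12 changed sign, none of them a called gene. The calls of HOXB3, HOXB5, HOXB6, HOXB7, HOXA5, HOXA11, HOXC10, HOXC11 and HOXC13 held in all 14. The count of members called higher was 10 and ran from 9 to 12, the 12 with no filter on low counts, where HOXC9 (0.27, adjusted p = 0.0383) and HOXD11 (adjusted p = 0.00326) were added. The count called lower was 1 and reached 2 without shRRM2 replicate 1, its range with a library left out being 1 to 2. HOXC9 was also called with library size alone (0.30, adjusted p = 0.0436), without shNC replicate 2 (0.35, adjusted p = 0.048) and without shRRM2 replicate 1 (0.39, adjusted p = 0.0089).

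Genes near 0 changed sign when a library was left out. The ranges were −0.08 to 0.12 for HOXA4, −0.22 to 0.50 for HOXA7, −0.44 to 0.18 for HOXA9, −0.11 to 0.13 for HOXB8, −0.16 to 0.02 for HOXB9, 0.00 to 0.16 for HOXC4 and −0.11 to 0.04 for HOXC8, which was also 0.00 with library size alone. Among neighbours they were −0.01 to 0.66 for HOXA10-HOXA9, −0.13 to 0.17 for HOXA10-AS, −0.02 to 0.06 for HIBADH, −0.34 to 0.08 for MIR196A1, −0.08 to 0.07 for LINC03057 and −0.14 to 0.06 for LNPK. The causes were not tested. With library size alone, the 16 higher and 16 lower calls of the partner and regulator lists became 19 and 13.

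The replicate numbers are not shown to pair libraries: deviations of same-numbered libraries correlated at −0.00677, −0.00339 and −0.0208. With the replicate number as a block, 11 members were called higher and 1 lower, HOXC9 being the added one (0.26, adjusted p = 0.0327), and RRM2 was at −2.31. Within a group the libraries differed more than sampling noise (chi-square per degree of freedom 2.23 to 3.87). At this depth the intervals of most uncalled members include rises of the sizes seen in HOXC10, HOXC11 and HOXC13 (0.24 to 0.32). These members are HOXA3, HOXA4, HOXA6, HOXA7, HOXA9, HOXB8, HOXB13, HOXC4, HOXC5 and HOXC9. For the other uncalled members the upper ends were 0.30 (HOXA10), 0.24 (HOXB9), 0.21 (HOXC8) and 0.03 (HOXA13).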
